A study of Mus musculus with 6 samples.

Results

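The CD3 chains and the kinases and adaptors of proximal T-cell receptor (TCR) signalling were followed across bone marrow (BM) of 2 leukemic genotypes. The members were the 9 genes with the symbols Cd3d, Cd3e, Cd3g, Cd247, Lck, Fyn, Zap70, Lat and Lcp2, out of 54532 genes listed, and each symbol matched 1 gene. All 9 were above 1 FPKM in each of the 6 libraries and so passed the filter on low values, which asked for this level in 3.

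RNA was sequenced from BM of C57BL/6 mice at day 100 after transplantation, the only age that the labels give. Both groups carried JAK3 M511I, an activating form of a Janus kinase that signals for cytokine receptors, delivered by a retrovirus that also encodes GFP. In the wild-type group (WT, 3 libraries) the donor cells came from male Phf6 fl/y mice without Cre, and in the knockout group (KO, 3 libraries) from male Vav1-Cre;Phf6 fl/y mice, in which the Vav1 promoter drives Cre throughout blood formation. Lineage-negative progenitors were infected and transplanted into irradiated male recipients, whose own remaining blood cells were not tracked in these data. The genotype labels count up in the last digit of the gene symbol within each group, and Phf6 was read in all of them, after the design text. No sort before RNA extraction is stated in the labels, and nothing says whether the 3 replicates of a group were separate animals, so p-values measure only the spread between these samples.

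The receptor that recognises antigen on a T cell has no signalling domain of its own. It is carried by the CD3 chains: the paired epsilon-delta and epsilon-gamma dimers (Cd3e, Cd3d and Cd3g) and the zeta dimer (Cd247), whose tails hold the tyrosine motifs called ITAMs. The Src-family kinase Lck, docked on the coreceptors CD4 and CD8, and its relative Fyn phosphorylate the ITAMs. Zap70 then binds them and phosphorylates the membrane adaptor Lat and the cytosolic adaptor Lcp2 (SLP-76), on which calcium and Ras signalling are assembled. Thymocytes use this chain of events first below the pre-TCR, which holds the invariant chain Ptcra, and later below the mature receptor.

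The recovered depth was 13015823 to 18235095 fragments (called reads here) per library, and the members held between 1083 and 17006 reads each. Counting error was therefore small, but not beside the spread between replicates where that was narrow, as for Lck in KO (CV 1.68%). WT 2 stood apart from the other 5 libraries. Genes shorter than 1000 bases took 17.1% of its reads against 3.11% to 5.01% elsewhere, and genes of at least 8000 bases 6.74% against 22.9% to 26.5%. Among those short genes, the globin gene Hba-a1 held 370231 reads of WT 2 and the neutrophil gene S100a8 270593. The short-gene share is thus not a measure of gene length alone. Its Pearson correlations with WT 1 and WT 3 across the tested genes, which are not independent replicates, were 0.779 and 0.746, and the member values and the counts over lists are therefore given with and without it. Phf6 itself was listed at 7.47, 3.67 and 8.02 FPKM in WT 1, 2 and 3 and at 6.73, 5.50 and 5.11 FPKM in KO 1, 2 and 3 (log2 difference -0.073, adjusted p = 0.893). The floxed segment covers only exons within the gene, so a value for the whole gene does not check the deletion.

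Lck and Lat were the members for which the 2 genotypes separated, and both were higher in KO. Lck stood at 175 to 193 FPKM in WT and 302 to 312 FPKM in KO, and Lat at 62.9 to 192 FPKM in WT and 225 to 237 FPKM in KO. The 4 CD3 chains, Fyn, Zap70 and Lcp2 had overlapping groups. With all 6 libraries, 0 of 9 members passed an adjusted p of 0.05 by limma, against 26.4% of the 13393 genes tested. At an unadjusted p under 0.05 there were 2, Lck and Lat, and voom on the recovered reads also called 0. The groups did not overlap for 2 of 9 members (22.2%), a smaller share than the 49.1% of all tested genes. In the direction of these 2, higher in KO, the share of all tested genes was 26.2%.

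Leaving out WT 2 gave 3 of 9 members called, all higher in KO: Cd3g, Lck and Lat. Without that library 52.0% of all tested genes were called, 26.8% higher and 25.3% lower, which stand as the background to the 3 of 9. No other library changed the count of members when left out. Rescaling to TPM shifted the median log2 difference of all tested genes from 0.086 to 0.86. It called 2 of 9 members, Lck and Lat, against 25.1% of all tested genes. Relative to that median, Lat was 1.17 and Lck 0.72 higher on the log2 scale, and the other 7 lay between -0.57 (Zap70) and 0.38 (Cd3e).

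**Figure D1:**
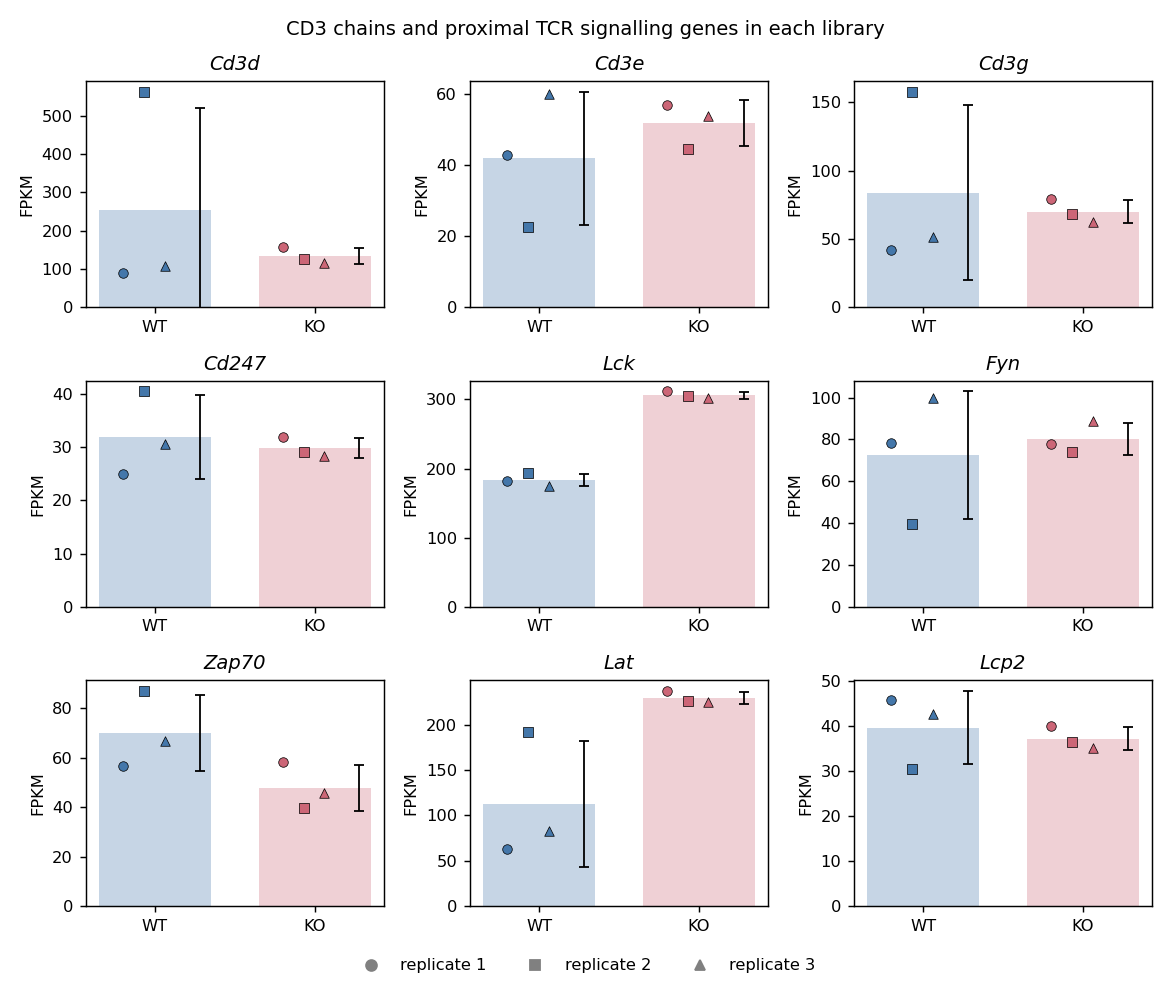
FPKM (linear axes from 0) of the 9 members in each library, with replicates 1, 2 and 3 as circle, square and triangle, the group mean as a bar and the SD (n = 3) as an error bar, which is clipped at 0 for Cd3d. Lck and Lat have no overlap between WT and KO, while WT 2 is the highest library for Cd3d, Cd3g, Cd247 and Zap70 and the lowest for Cd3e, Fyn and Lcp2.

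Of the CD3 chains, Cd3d, Cd3g and Cd3e lie side by side at 1 locus. Cd3g (chr9:44969572-44980431, minus strand, GRCm38, given in that build throughout) and Cd3d (chr9:44981786-44987339, plus strand) point away from each other with 1354 bases between them. Cd3e (chr9:44998740-45009627, minus strand) follows 11400 bases beyond Cd3d, and the 3 genes span 40056 bases. Cd247 is on another chromosome (chr1:165788681-165877277, plus strand).

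Cd3d, the delta chain, was at 89.8, 561 and 109 FPKM in WT 1, 2 and 3 and at 156, 127 and 115 FPKM in KO 1, 2 and 3. WT 2 was the highest of the 6 and the other WT libraries the lowest. The log2 difference of KO from WT was -0.42 (SE 0.71, 95% interval -2.14 to 1.29, adjusted p = 0.711), and without WT 2 it turned to 0.41 (adjusted p = 0.104).

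Cd3g, the gamma chain, had the same order of libraries as its neighbour among the WT samples, at 42.2, 158 and 51.4 FPKM in WT 1, 2 and 3. The KO libraries held 79.5, 68.2 and 62.6 FPKM, between WT 2 and the other WT libraries. The log2 difference was -0.0077 (SE 0.52, 95% interval -1.25 to 1.23, adjusted p = 0.994) with all libraries. Without WT 2 all KO values were above WT, at a log2 difference of 0.57 (95% interval 0.18 to 0.97, adjusted p = 0.0278), a call that rests on leaving out that library.

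Cd3e, the chain shared by both dimers, moved the other way in WT 2. Its values were 42.7, 22.6 and 60.0 FPKM in WT 1, 2 and 3 and 56.8, 44.5 and 53.7 FPKM in KO 1, 2 and 3, all within the WT range. KO differed from WT by a log2 value of 0.40 (SE 0.39, 95% interval -0.53 to 1.33, adjusted p = 0.505) and 0.02 without WT 2 (95% interval -0.45 to 0.50, adjusted p = 0.931).

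Cd247, the zeta chain, which also signals below Fc and NK receptors, was the lowest member in KO. It stood at 24.9, 40.5 and 30.6 FPKM in WT 1, 2 and 3 and at 32.0, 29.2 and 28.4 FPKM in KO 1, 2 and 3, again inside the WT range. On the log2 scale KO minus WT was -0.072 (SE 0.26, 95% interval -0.69 to 0.55, adjusted p = 0.869), and 0.11 without WT 2 (95% interval -0.24 to 0.45, adjusted p = 0.549).

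Within a library the chains kept similar shares, except in WT 2. Of the summed FPKM of the 4 chains, Cd3d made up 43.3% to 48.0%, Cd3g 20.5% to 25.4%, Cd3e 16.6% to 24.0% and Cd247 9.87% to 12.5% in the other 5 libraries. In WT 2 Cd3d made up 71.8%, Cd3e 2.89% and Cd247 5.18%, with Cd3g at 20.2%. The sum itself was 200, 782 and 251 FPKM in WT 1, 2 and 3 and 324, 269 and 260 FPKM in KO 1, 2 and 3, so the KO libraries lay just above WT 1 and WT 3 and below WT 2. In bulk samples, fewer cells of a type and less RNA per cell cannot be told apart.

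**Figure D2:**
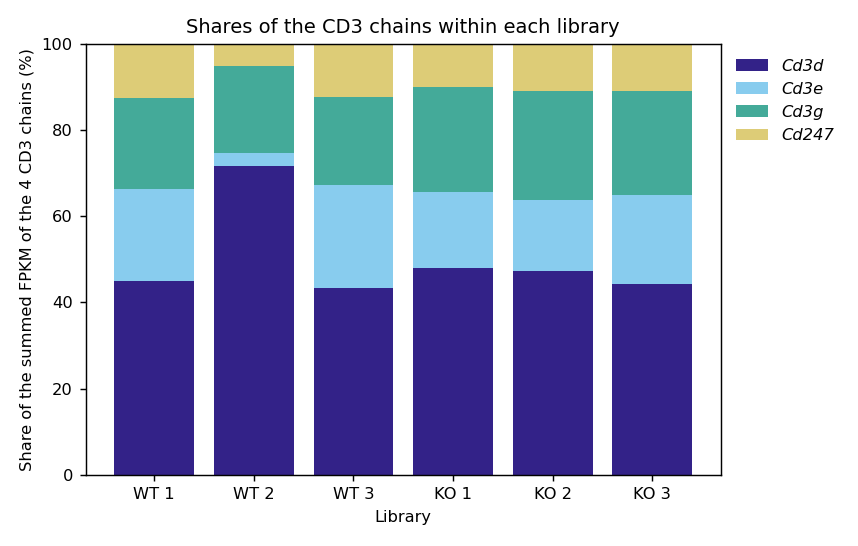
Share of each CD3 chain (%) in the summed FPKM of the 4 chains, 1 stacked bar per library. WT 2 differs from the other 5 bars, with Cd3d at 71.8% and Cd3e at 2.89%, and the KO bars resemble WT 1 and WT 3.

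Lck (chr4:129548344-129573641, minus strand), the coreceptor-bound kinase that starts the cascade, was at 182, 193 and 175 FPKM in WT 1, 2 and 3. The KO libraries held 312, 305 and 302 FPKM, each above each WT library. Its WT libraries varied least of all members (CV 4.89%), and so did its KO libraries (CV 1.68%). The mean ± SD was 184 ± 8.97 FPKM in WT and 306 ± 5.14 FPKM in KO (n = 3 each), 1.67 times the WT mean. On the log2 scale the difference was 0.74 (SE 0.30, 95% interval 0.015 to 1.46, unadjusted p = 0.0467), which did not pass after adjustment by limma (adjusted p = 0.127). Without WT 2 it was 0.77 (95% interval 0.46 to 1.09, adjusted p = 0.0045).

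Fyn (chr10:39368855-39565381, plus strand), the second Src-family kinase, was at 78.2, 39.4 and 99.7 FPKM in WT 1, 2 and 3 and at 77.7, 74.1 and 89.1 FPKM in KO 1, 2 and 3. WT 2 was the lowest, KO 1 and KO 2 lay just under WT 1, and KO 3 lay between WT 1 and WT 3. The log2 difference was 0.24 (SE 0.39, adjusted p = 0.697) and -0.14 without WT 2 (95% interval -0.54 to 0.26, adjusted p = 0.495). The log2 ratio of Fyn to Lck was -1.22, -2.29 and -0.82 in WT 1, 2 and 3 and -2.01, -2.04 and -1.76 in KO 1, 2 and 3. The KO ratios lay below those of WT 1 and WT 3 and above that of WT 2, and the difference of -0.49 had an exact permutation p of 0.4 (-0.92 without WT 2).

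Zap70 (chr1:36761798-36782818, plus strand), the kinase that docks on the phosphorylated ITAMs, was at 56.6, 87.1 and 66.8 FPKM in WT 1, 2 and 3. KO 1, 2 and 3 held 58.2, 39.6 and 45.7 FPKM, so that KO 2 and KO 3 were below each WT library and KO 1 was not. KO differed from WT by a log2 value of -0.54 (SE 0.29, adjusted p = 0.227) and -0.37 without WT 2 (95% interval -0.85 to 0.10, adjusted p = 0.152). Its relative Syk, which does the same work in B cells, myeloid cells and early thymocytes, was at 26.9, 38.4 and 6.43 FPKM in WT 1, 2 and 3 and at 8.45, 5.43 and 6.08 FPKM in KO 1, 2 and 3. The log2 difference of Syk was -1.41 (adjusted p = 0.152). It was -0.93 without WT 2 (adjusted p = 0.198) and -2.13 without WT 3 (adjusted p = 0.0078), and ranged from -2.13 to -0.67 over all alternatives. The log2 ratio of Zap70 to Syk was 1.08, 1.18 and 3.38 in WT 1, 2 and 3 and between 2.78 and 2.91 in KO, inside the WT range (difference 0.98, exact permutation p = 0.4, and 0.63 without WT 2).

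Lat (chr7:126363824-126369570, minus strand), the membrane scaffold that Zap70 phosphorylates, was at 62.9, 192 and 83.1 FPKM in WT 1, 2 and 3. It stood at 237, 226 and 225 FPKM in KO 1, 2 and 3, above each WT library, with WT 2 the nearest. The KO mean was 3.14 times the mean of WT 1 and WT 3 and 1.20 times WT 2. On the log2 scale KO minus WT was 1.19 (SE 0.46, 95% interval 0.083 to 2.29, unadjusted p = 0.0388) and did not pass after adjustment by limma (adjusted p = 0.111). It was 1.65 without WT 2 (95% interval 1.26 to 2.04, adjusted p = 0.000693). It was 1.25 (adjusted p = 0.0434) once a trend with gene length was removed from each of the 6 libraries, an alternative chosen after seeing the data.

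Lcp2 (chr11:34046920-34092295, plus strand), the adaptor SLP-76 that joins Lat through Grap2 and is also used by platelets and myeloid cells, did not share the pattern of Lat. Its values were 45.8, 30.4 and 42.7 FPKM in WT 1, 2 and 3 and 40.1, 36.5 and 35.1 FPKM in KO 1, 2 and 3, all inside the WT range. The log2 difference was -0.069 (SE 0.25, adjusted p = 0.872) and -0.24 without WT 2 (95% interval -0.55 to 0.057, adjusted p = 0.144). The log2 ratio of Lcp2 to Lat was -0.46, -2.66 and -0.96 in WT 1, 2 and 3 and between -2.68 and -2.56 in KO. The KO ratios were below WT 1 and WT 3, around WT 2, and the difference of -1.27 had an exact permutation p of 0.3 (-1.92 without WT 2).

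**Figure D3:**
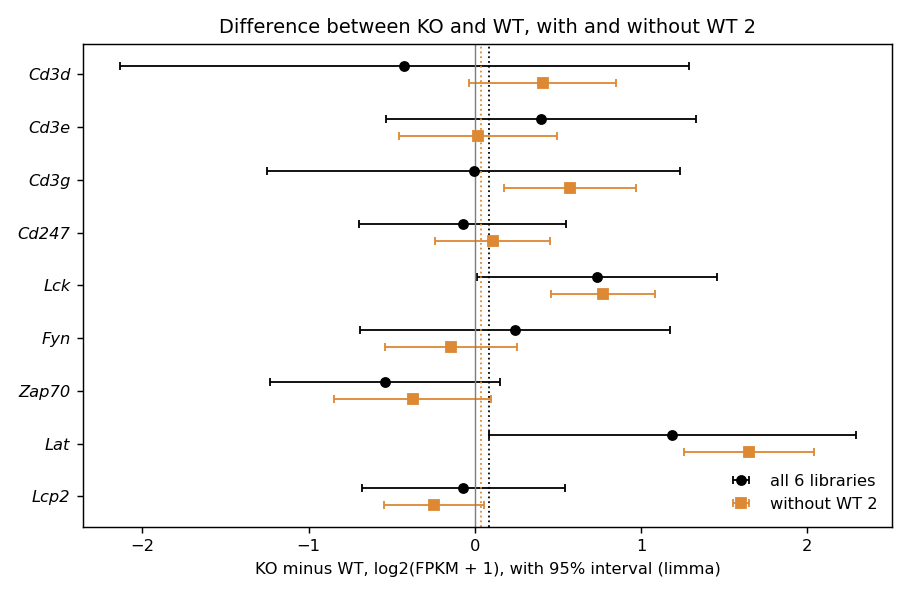
KO minus WT on the log2(FPKM + 1) scale for the 9 members, with 95% intervals from limma, for all 6 libraries (black circles) and without WT 2 (orange squares). Dotted lines mark the median of all tested genes in each fit, 0.086 and 0.040, and the intervals of Lck and Lat lie above 0 in both fits while that of Cd3g does so only without WT 2.

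The ratio of Cd247 to the mean of Cd3d, Cd3e and Cd3g was the remaining one of the 4 ratios tested. On the log2 scale it was -1.23, -2.61 and -1.26 in WT 1, 2 and 3 and -1.61, -1.45 and -1.44 in KO 1, 2 and 3, with a difference of 0.20 (exact permutation p = 1). Without WT 2 the difference was -0.26. After Benjamini-Hochberg adjustment over the 4 ratios the exact permutation p-values were 1 for Cd247 and 0.533 for the others, and 3 against 3 libraries cannot give a p under 0.1. A ratio within a library does not depend on how that library was scaled, though it does depend on gene length where a library has a length bias, as WT 2 had.

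By level, all on the FPKM scale, the KO libraries gave a nearly fixed order of members. Lck (mean 306) was followed by Lat (230), Cd3d (132), Fyn (80.3), Cd3g (70.1), Cd3e (51.7), Zap70 (47.8), Lcp2 (37.2) and Cd247 (29.9). Neighbours whose KO ranges overlapped were Fyn and Cd3g, Cd3e and Zap70, and Zap70 and Lcp2. In WT the means ran Cd3d (253), Lck (184), Lat (113), Cd3g (83.8), Fyn (72.4), Zap70 (70.1), Cd3e (41.8), Lcp2 (39.6) and Cd247 (32.0), and all neighbouring ranges overlapped. Each of the 9 members had a larger CV over the WT than over the KO libraries, 4.89% to 105% against 1.68% to 19.7%.

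WT 2 departed from WT 1 and WT 3 by a different factor for each member. Against their mean, it was 5.66 times for Cd3d, 3.37 times for Cd3g, 2.63 times for Lat, 1.46 times for Cd247, 1.41 times for Zap70 and 1.08 times for Lck. It was 0.687 times for Lcp2, 0.443 times for Fyn and 0.440 times for Cd3e. The gene lengths of the 3 highest were 1815, 3269 and 2767 bases, and those of the 3 lowest 4459, 4363 and 4080 bases, while Cd247 (5329 bases) was above 1. Over all tested genes the median log2 departure of WT 2 was -0.29 below 1000 bases, 0.79 from 1000 to below 2000 bases, 0.44 up to 3000, 0.11 up to 4000, -0.097 up to 5000 and -0.62 at 5000 bases and over. The part of this length bias in the member values was not tested beyond the fit with the trend removed. In that fit 1 of 9 members, Lat, was called, against 28.6% of all tested genes.

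Promoter sequences around the start sites are shown for Lck and Lat, whose groups did not overlap, and for the divergent Cd3g and Cd3d pair. Neither Lck nor Lat was called with all libraries. The share of members without overlap, 22.2%, was under the 49.1% of all tested genes, and under the 26.2% without overlap and higher in KO. Each window runs from 250 bases before to 50 after a RefSeq start site (GRCm38.p6), 5′ to 3′ on the gene's strand, and the 9 members had 12 such windows. Capitals mark 7 short motifs on either strand, chosen after the sequences were seen. They are a motif of ETS factors (AGGAAG), of RUNX factors (TGTGGT), of TCF factors (CTTTGA), of GATA factors (AGATAA) and of the Notch partner CSL (GTGGGAA), and the E-box forms CACCTG (E-box 1) and CAGCTG (E-box 2). Lck has a distal (chr4:129573592-129573891, minus strand) and a proximal window (chr4:129558323-129558622, minus strand), with start sites 15269 bases apart, and its FPKM cannot tell them apart. The windows of Lat (chr7:126369519-126369818, minus strand), Cd3g (chr9:44980382-44980681, minus strand) and Cd3d (chr9:44981536-44981835, plus strand) follow.
Lck distal: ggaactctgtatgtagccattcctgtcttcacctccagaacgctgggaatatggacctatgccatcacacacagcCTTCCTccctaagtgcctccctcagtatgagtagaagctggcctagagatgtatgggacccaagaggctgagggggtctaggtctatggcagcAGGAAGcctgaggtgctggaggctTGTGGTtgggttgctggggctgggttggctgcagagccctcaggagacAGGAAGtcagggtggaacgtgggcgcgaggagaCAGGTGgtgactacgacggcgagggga
Lck proximal: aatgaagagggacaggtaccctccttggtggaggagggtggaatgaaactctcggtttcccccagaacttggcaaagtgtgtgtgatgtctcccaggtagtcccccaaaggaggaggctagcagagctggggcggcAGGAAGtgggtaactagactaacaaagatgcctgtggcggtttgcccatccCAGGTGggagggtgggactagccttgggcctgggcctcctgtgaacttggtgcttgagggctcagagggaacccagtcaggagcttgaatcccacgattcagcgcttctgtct
Lat: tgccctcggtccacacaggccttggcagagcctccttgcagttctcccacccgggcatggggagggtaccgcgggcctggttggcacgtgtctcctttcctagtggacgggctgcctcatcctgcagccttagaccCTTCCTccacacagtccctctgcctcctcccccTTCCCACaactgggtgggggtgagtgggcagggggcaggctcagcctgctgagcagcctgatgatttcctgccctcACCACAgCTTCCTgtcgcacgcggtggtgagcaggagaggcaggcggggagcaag
Cd3g: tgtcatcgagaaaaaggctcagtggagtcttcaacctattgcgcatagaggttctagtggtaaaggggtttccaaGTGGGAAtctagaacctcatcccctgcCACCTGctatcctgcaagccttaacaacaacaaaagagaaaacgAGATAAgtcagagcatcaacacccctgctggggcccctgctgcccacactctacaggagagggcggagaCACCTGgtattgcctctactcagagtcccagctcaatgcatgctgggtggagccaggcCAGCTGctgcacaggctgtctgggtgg
Cd3d: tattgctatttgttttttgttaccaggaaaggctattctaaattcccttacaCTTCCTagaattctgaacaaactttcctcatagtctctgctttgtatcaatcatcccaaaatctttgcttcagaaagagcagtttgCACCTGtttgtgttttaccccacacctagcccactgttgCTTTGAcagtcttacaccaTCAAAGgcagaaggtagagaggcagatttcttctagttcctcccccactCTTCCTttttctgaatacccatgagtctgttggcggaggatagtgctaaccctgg

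The ETS letters occurred in 9 of the 12 windows, those of 7 of 9 members, and in 35.4% of all 32851 promoter windows. They were found 3 times in the distal Lck window, once in the proximal one and 2 times each in Lat and Cd3d, and not in Cd3g. The RUNX letters were in 3 of 12 windows (3 members), among them distal Lck and Lat, and in 16.8% of all promoter windows. In Lat the RUNX and an ETS match lie side by side at the start site, at positions 246 and 253 of the window. The TCF letters were in 5 of 12 windows (5 members, 16.0% of all promoter windows), 2 times in Cd3d. The E-box 1 letters were in 8 of 12 windows (6 members, 20.2%), 2 times in Cd3g. The E-box 2 letters (2 windows of 2 members, 16.3%), the GATA letters (2 of 2, 11.2%) and the CSL letters (3 of 3, 6.38%) were in Cd3g as well. With motifs chosen after the sequences were seen, these shares are not a test. These matches describe letters in the windows and were not compared with any binding data.

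Around the members, 78 other genes of the pathway were followed in 8 lists by role, of which 76 passed the filter. With all libraries 29 were called, 8 higher and 21 lower in KO, against 13.1% of all tested genes called higher and 13.3% lower. Without WT 2 there were 48, 13 higher and 35 lower, against 26.8% of all tested genes called higher and 25.3% lower. These shares are also the background to the counts without WT 2 given by list and for markers below. The median log2 difference of the 76 was -0.31 (-0.45 without WT 2), against 0.086 for all tested genes (0.040 without WT 2). TPM scaling called 21 of them and moved the balance of all calls to 17.0% higher and 8.07% lower. All 22 called genes that the naming rule picked kept their direction in each alternative that tested them, and all 22 were also called without WT 2. Only 13 of the 22 were called in each alternative that tested them. Many were picked for a small p in these same data, so a kept direction is no separate support. With TPM, Cd5, Cd6, Unc119, Sh2d2a and Dok2 were among those no longer called (adjusted p 0.0581 to 0.391), nor was Unc119 without a filter (0.0704) or Fcer1g by voom (0.0543).

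**Figure D4:**
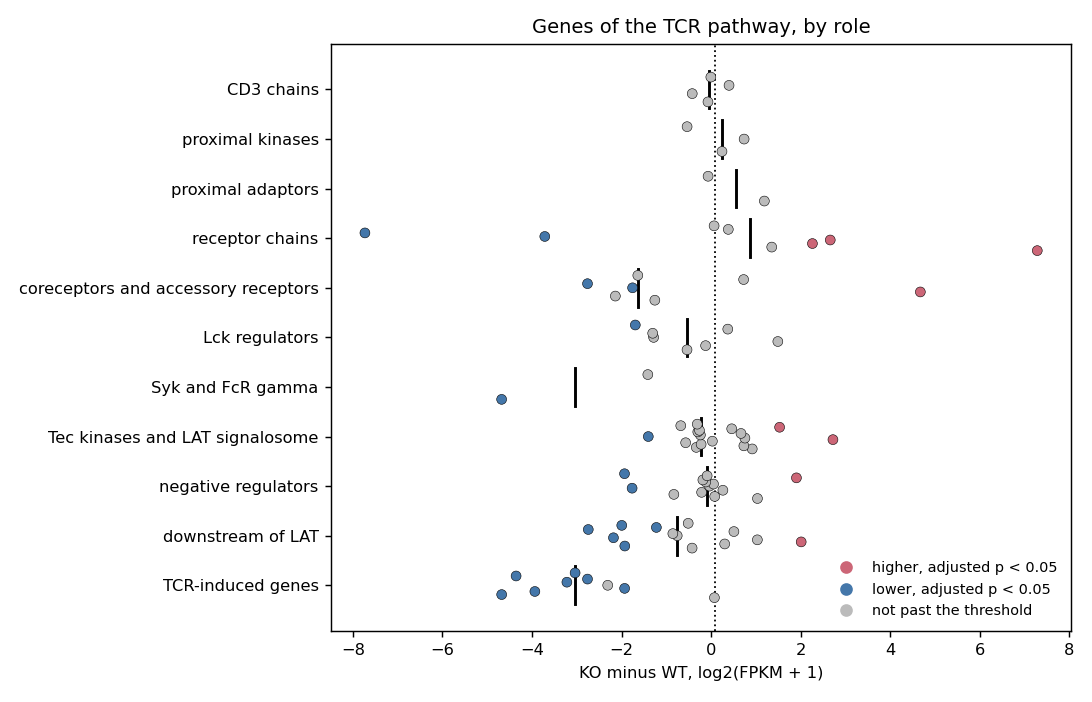
KO minus WT on the log2(FPKM + 1) scale for each tested gene of the pathway, in rows by role, with the row median as a vertical bar and the median of all tested genes (0.086) as a dotted line. The members, in the first 3 rows, run from -0.54 (Zap70) to 1.19 (Lat) with none called, receptor chains spread to both sides, and 7 of 9 TCR-induced genes are called lower.

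The receptor chains that pair with CD3 differed more than the CD3 chains themselves. Of 8 tested, 3 were called higher and 2 lower (median log2 difference 0.87), and without WT 2 there were 5 and 2. Ptcra, the invariant chain of the pre-TCR, was listed at 0 in all 3 WT libraries and at 161, 167 and 137 FPKM in KO 1, 2 and 3 (adjusted p = 0.000174 by limma). It passed the filter on low values through the KO libraries alone, so this call is not independent of the filter. Against a floor of 3 reads per WT library its KO mean was at least 928-fold higher. Trac, the constant part of the alpha chain that replaces Ptcra in the mature receptor, was at 196, 292 and 226 FPKM in WT 1, 2 and 3 and at 41.8, 15.8 and 7.04 FPKM in KO 1, 2 and 3. It fell by 3.72 on the log2 scale (adjusted p = 0.0060).

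The beta chain was carried by both constant genes in WT and by Trbc2 in KO. Trbc1 was at 179, 869 and 254 FPKM in WT 1, 2 and 3 and at 0.43, 0 and 1.91 FPKM in KO 1, 2 and 3 (log2 difference -7.73, adjusted p = 0.000672). Trbc2 was at 311, 937 and 366 FPKM in WT and 782, 651 and 464 FPKM in KO (log2 difference 0.38, adjusted p = 0.671), and without WT 2 it was called higher (0.87, adjusted p = 0.0318). The pair is nearly identical in sequence, so reads may be split between them with error, although Trbc1 made up 36.6% to 48.1% of their sum in WT and at most 0.41% in KO. Their sum was 490, 1806 and 619 FPKM in WT and 782, 651 and 466 FPKM in KO, overlapping between groups (exact permutation p = 0.8).

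The gamma constant genes were higher in KO. Tcrg-C4 was at 21.0, 40.7 and 35.6 FPKM in WT 1, 2 and 3 and at 163, 195 and 262 FPKM in KO 1, 2 and 3 (log2 difference 2.66, adjusted p = 0.0029). Tcrg-C2 rose by 2.26 (adjusted p = 0.0106), though without KO 3 its adjusted p was 0.0511. Tcrg-C1 had a difference of 1.35 (adjusted p = 0.0569, and 0.0246 without WT 2). The gamma constant genes are close copies of one another, so their split is uncertain as well. Trdc, of the delta chain, stood at 1.94, 14.8 and 2.80 FPKM in WT and 4.68, 3.42 and 7.09 FPKM in KO (difference 0.065, adjusted p = 0.956).

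Among the 7 coreceptors and accessory receptors, 1 was called higher and 2 lower (median -1.64), and without WT 2 there were 1 and 5. Cd4, the coreceptor for MHC class II that binds Lck, was at 1.45, 2.13 and 2.90 FPKM in WT 1, 2 and 3 and at 98.4, 95.3 and 50.5 FPKM in KO 1, 2 and 3 (difference 4.67, adjusted p = 0.000415). Cd6, a scavenger-type receptor of mature T cells, fell by 2.76 (adjusted p = 0.0072). Cd5, its relative, whose level follows TCR signal strength in thymocytes, fell by 1.76 (adjusted p = 0.0200), and its adjusted p was 0.0538 to 0.0862 when WT 3, KO 2 or KO 3 was left out. The other Lck-binding coreceptor, Cd8a, was at 189, 101 and 208 FPKM in WT and 321, 272 and 207 FPKM in KO (difference 0.72, adjusted p = 0.251). Cd8b1, which encodes the other CD8 chain, was at 276, 788 and 293 FPKM in WT and 141, 130 and 114 FPKM in KO, lower in each KO library (difference -1.64, adjusted p = 0.0512), and it was called lower without WT 2 (-1.15, adjusted p = 0.0019). Both CD8 genes were chosen after their values were seen.

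Of the 8 regulators of Lck, 7 were tested (Lime1 was under the filter), and 0 were called higher and 1 lower (median -0.54). Without WT 2, 1 was higher and 3 lower. The called gene was Unc119, a lipid-binding activator of Lck, at 19.7, 45.5 and 13.2 FPKM in WT 1, 2 and 3 and at 5.33, 5.68 and 8.53 FPKM in KO 1, 2 and 3 (difference -1.69, adjusted p = 0.0393). That call was lost when WT 1 or any KO library was left out (adjusted p 0.0817 to 0.139). Of the pair that stands in for Zap70 and Cd247 elsewhere, Syk is given above, and Fcer1g, the Fc receptor gamma chain, was at 106, 483 and 19.8 FPKM in WT and 2.21, 2.69 and 4.41 FPKM in KO (difference -4.68, adjusted p = 0.0200). The adjusted p of Fcer1g was 0.0606 to 0.0807 when WT 1 or any KO library was left out.

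The Tec kinases and partners of Lat showed few calls, 2 higher and 1 lower of 17 (median -0.23), and 2 and 4 without WT 2. Nck2, an adaptor to the actin cytoskeleton that binds Lcp2, was at 10.6, 5.14 and 12.1 FPKM in WT 1, 2 and 3 and at 60.0, 55.9 and 75.8 FPKM in KO 1, 2 and 3 (difference 2.72, adjusted p = 0.0025). Themis, a thymocyte adaptor that tunes TCR signals during selection, rose by 1.53 (adjusted p = 0.0113), and its adjusted p was 0.0551 without KO 1 and 0.0617 without KO 2. Sh2d2a, an adaptor that binds Lck, fell by 1.40 (adjusted p = 0.0066). Of the 13 negative regulators, 1 was higher and 2 lower (median -0.091), and 2 and 4 without WT 2. Sla2, an adaptor that damps TCR signals, rose by 1.90 (adjusted p = 0.0084), the phosphatase Ubash3b fell by 1.94 (adjusted p = 0.0027), and the adaptor Dok2 fell by 1.77 (adjusted p = 0.0089, and 0.0513 without KO 2). Ubash3b was under 1 FPKM in each KO library and passed the filter through WT alone.

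Downstream of Lat, 1 of 13 genes was higher and 5 were lower in KO (median -0.76), and 2 and 8 without WT 2. Itpr2, a calcium channel of the endoplasmic reticulum, was at 10.6, 7.98 and 10.3 FPKM in WT 1, 2 and 3 and at 44.2, 35.0 and 46.1 FPKM in KO 1, 2 and 3 (difference 2.01, adjusted p = 0.0020). Orai1, the plasma membrane calcium channel, was at 19.8, 38.6 and 11.1 FPKM in WT and 2.27, 2.08 and 2.30 FPKM in KO, and fell by 2.74 (adjusted p = 0.0056).

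Genes that TCR signals induce were lower in KO in 7 of 9 tested, none were higher, and the median log2 difference was -3.04 (Egr2 was under the filter). Without WT 2, 8 of 9 were lower. Nr4a2, Nr4a3 and Egr3 were under 1 FPKM in each KO library. They passed the filter through WT alone, so their calls are not independent of the filter. Cd69, an early activation marker, was at 67.5, 89.1 and 128 FPKM in WT 1, 2 and 3 and at 2.83, 2.53 and 2.50 FPKM in KO 1, 2 and 3 (difference -4.68, adjusted p = 0.000271). The orphan nuclear receptor Nr4a3 fell by 3.04 (adjusted p = 0.000767) and the transcription factor Egr1 by 3.94 (adjusted p = 0.0011). These genes also respond to other stimuli and are expressed in other blood cells, and the part of those cells in the difference was not tested.

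Markers of other cells moved with the groups. Neutrophil markers were lower in KO in 10 of 10 tested, with a summed level of 6674 to 93719 FPKM in WT and 91.4 to 282 FPKM in KO. Monocyte and macrophage markers were lower in 6 of 9 (7 of 9 without WT 2, 606 to 5113 against 17.2 to 30.1 FPKM). B-cell markers were lower in 2 of 6, and without WT 2 in 5 of 6 with the remaining 1 higher (711 to 2447 against 16.7 to 70.8 FPKM). Erythroid markers were called in 0 of 6 by limma, with 3 lower and 1 higher without WT 2, and their sum was 58693 FPKM in WT 2 against 120 and 475 FPKM in WT 1 and WT 3 and 15.5 to 111 FPKM in KO. Megakaryocyte and platelet markers were called in 0 of 2 and in 2 of 2 without WT 2 (5.01 to 60.2 against 0.285 to 0.351 FPKM), with Ppbp at 0 in all KO libraries and Gp1bb at 0 in all libraries. Several of these markers, and of the NK markers below, were under 1 FPKM in each KO library and passed the filter through WT alone. The part of these cells in the member values was not tested.

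NK cells share Cd247, Lck, Fyn, Zap70 and Lat with T cells. Of 8 NK markers tested, 7 were lower in KO, many of which cytotoxic T cells express too. Klra8 was at 0 in all KO libraries. So was Klra4, which was not tested and stood at 0 in WT 1 and WT 3 and at 0.683 FPKM in WT 2. The exception among the 8 tested was the protease gene Gzma, at 12.9, 50.8 and 27.9 FPKM in WT 1, 2 and 3 and 587, 566 and 615 FPKM in KO 1, 2 and 3. Gzma made up nearly all of the NK sum in KO (580 to 648 FPKM, against 610 to 1211 FPKM in WT). Klrb1c, among the 7 lower, stood at 0.24 to 0.78 FPKM in KO and 14.3 to 44.7 FPKM in WT. The part of NK cells in the levels of Lck and Lat was not tested. Of 12 T-cell markers, which include the 4 CD3 chains, 1 was higher and 4 were lower, and without WT 2 there were 4 and 5, with sums of 1470 to 3490 FPKM in WT and 1469 to 1939 FPKM in KO.

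**Figure D5:**
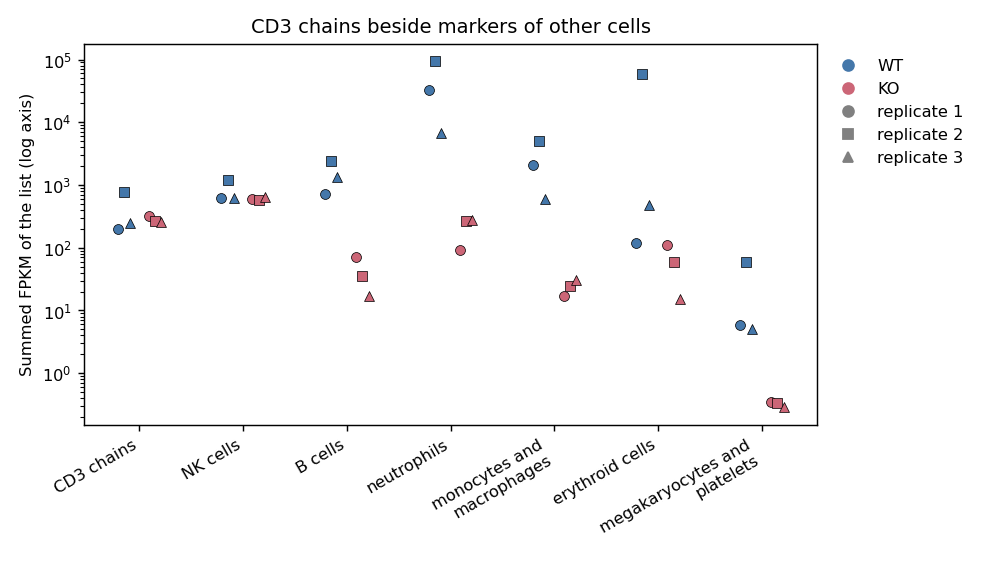
Summed FPKM (log axis) of the 4 CD3 chains and of markers of 6 other cell types in each library, WT in blue and KO in red, with replicates 1, 2 and 3 as circle, square and triangle. The CD3 sums overlap between groups while the neutrophil, monocyte, B-cell, erythroid and megakaryocyte sums are lower in all KO libraries. The erythroid sum is 58693 FPKM in WT 2, 120 and 475 FPKM in WT 1 and WT 3, and 15.5 to 111 FPKM in KO.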

How the data were processed

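Total RNA of BM was extracted with Trizol and sequenced as paired ends on an Illumina NovaSeq by the authors. The deposited table gives FPKM per gene, fragments scaled to gene length and library size, made by the authors with their own library sizes. The submitters' processing notes name HISAT2 2.0.5, featureCounts 1.5.0-p3, GRCm38 and mm10. How strand was counted is not given in the sources used here. The reads per gene were recovered by dividing FPKM times length by its smallest step, and 100% of values above 0 came out whole (tolerance 0.1 of a read). The size the authors divided by was 0.645 to 1.21 times the recovered total. The floor of 3 reads covers counting error only, since PCR copies are not independent molecules, and the 95% intervals are limma's, over libraries.

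The members and lists were chosen with earlier results of these data known. Genes with FPKM of at least 1 in at least 3 libraries (13393) were tested as log2(FPKM + 1), a scale that understates changes of low genes. KO was compared with WT by limma 3.58.1 (lmFit, eBayes with trend, two-sided, R 4.3.3), with Benjamini-Hochberg adjustment over all genes tested and a threshold of 0.05. This limma fit gives each adjusted p. The script was tested on simulated data. Ratios were compared by two-sided exact permutation tests over libraries. The study used a count model, which does not suit FPKM. Figures used Matplotlib 3.10.9, permutation tests SciPy 1.17.1 and NumPy 2.4.6, and tables pandas 2.3.3, under Python 3.11.15.

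Named were the 9 members, all receptor chains, Syk and Fcer1g, up to 3 called genes with the smallest p in each other list, genes overlapping a member, and the 5 protein-coding genes nearest the CD3 mean. Alternatives were a pseudocount of 0.1, no filter, a mean FPKM of at least 5, TPM, median-of-ratios scaling, array weights, a replicate block, voom, leaving out each library and, added after seeing the data, removal of a length trend. Marker Ahsp was not found in the table. Of the genes picked for naming, 1 is not reported here.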

Additional observations from a re-analysis of the deposited data

How the results depend on the processing

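The count of members called was 0 with all libraries, 2 with TPM, 3 with array weights (which gave WT 2 a weight of 0.0509) and 1 with the length trend removed. The same fits called 26.4%, 25.1%, 63.2% and 28.6% of all tested genes. The count of members ranged from 0 to 3 when 1 library was left out, the 3 coming without WT 2. The count of pathway genes called was 29, and 56 with array weights, and ranged from 20 (without KO 2) to 48 (without WT 2). For all tested genes the share called ranged from 14.4% (without KO 2) to 52.0% (without WT 2). The sign of the log2 difference turned for Cd3d with TPM (0.42), array weights (0.46) and without WT 2 (0.41). It turned for Cd3g with TPM (0.83), array weights (0.64), the length trend removed (0.022) and without WT 2 (0.57), KO 2 (0.0087) or KO 3 (0.069). It turned for Cd247 with TPM (0.76), array weights (0.19) and without WT 2 (0.11), and for Fyn with array weights (-0.019) and without WT 2 (-0.14). It also turned for Zap70 with TPM (0.29), for Lcp2 with TPM (0.76) and without WT 1 (0.043), and for Trdc without WT 1 (-0.40), WT 3 (-0.22) or KO 3 (-0.17). The TPM fit had a median log2 difference of 0.86 over all tested genes. Relative to that median, Cd3d was at -0.44, Cd3g at -0.026, Cd247 at -0.10, Zap70 at -0.57 and Lcp2 at -0.099. With TPM none of them therefore turned relative to the other tested genes. Leaving out 1 library gave ranges of -0.91 to 0.41 for Cd3d, -0.37 to 0.57 for Cd3g, -0.23 to 0.11 for Cd247, -0.14 to 0.52 for Fyn, -0.24 to 0.043 for Lcp2 and -0.40 to 0.81 for Trdc. None of these genes was called in the fit with all libraries. The ratio of Cd247 to the other chains ranged from -0.26 (without WT 2) to 0.44 on leaving out 1 library, that of Fyn to Lck from -0.92 to -0.18, Zap70 to Syk from 0.57 to 1.73 and Lcp2 to Lat from -1.92 to -0.82. The cause of these changes was not tested. The labels state no pairing of same-numbered libraries. Their deviations from the group means correlated at 0.0954, 0.105 and -0.153, and 2 of 6 libraries correlated best with their own number. With 3 libraries per group this cannot exclude a pairing. With the replicate block 0 members and 28 pathway genes were called, and the adjusted p of Unc119 was 0.0717.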

Other observations

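Other genes overlap the members, and reads of genes on opposite strands cannot be told apart where strand was not used in counting. Gm48719, antisense to Cd3e (chr9:44999429-45002985, plus strand, 3557 bases of overlap), was at 14.7, 0.471 and 19.1 FPKM in WT 1, 2 and 3 and at 31.8, 19.4 and 22.4 FPKM in KO 1, 2 and 3. Like Cd3e it was lowest in WT 2, and its log2 difference of 1.69 did not pass (adjusted p = 0.261). Within Fyn, the antisense genes Gm16364 and Gm16365 were at 9.92 and 7.68 FPKM in WT 1 and 11.2 and 7.88 FPKM in WT 3, at 0 in WT 2, and at 2.41 to 3.93 and 2.44 to 4.01 FPKM in KO. Pou2f1, a transcription factor gene that shares 12124 bases with Cd247 on the opposite strand, was at 4.41, 0.928 and 7.54 FPKM in WT 1, 2 and 3 and at 5.99 to 7.38 FPKM in KO. In all, 15 listed genes overlap a member, and WT 2 alone was the lowest library for 11 of them. The others were Gm23402, Mir8119, Gm6963 and Mir7058. Of the 13 that were tested 1 was called, Gm16565, against 26.4% of all tested genes. It shares 687 bases with Cd247 on the same strand. Its levels were 0.446, 0.273 and 0.799 FPKM in WT 1, 2 and 3 and 1.34 to 1.77 FPKM in KO (log2 difference 0.76, adjusted p = 0.0342). Gm16565 passed the filter on low values through the KO libraries alone, so this call is not independent of the filter.

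The protein-coding genes whose pattern over the 6 libraries was most like the mean of the CD3 chains were Fbxw5, Grik5, Irf2bp1, Clasrp and Fam207a. Their root mean square difference from that mean was 0.059 to 0.090 on the centred log2(FPKM + 1) scale. All 5 were highest in WT 2, as the CD3 mean was, which follows from picking them for likeness over these same libraries. Fbxw5, for example, was at 13.2, 31.9 and 17.3 FPKM in WT 1, 2 and 3 and at 22.7, 17.8 and 19.2 FPKM in KO 1, 2 and 3. Of the members themselves, Cd247 (0.13) was nearest to the CD3 mean and Cd3e (0.72) farthest.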
